A study of Homo sapiens with 5 samples.

Results

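GH1, the gene of pituitary growth hormone, was followed through human brain organoids before and after grafting into the mouse brain. It is 1 gene of the 32732 rows listed for all 5 libraries. GH1 was chosen by its own measured values, which are the share of cells with a GH1 molecule and the level of GH1 in each library and cell class, so these values are given as a description and carry no test. GH1 was read in the human-reference matrices of all 5 libraries and again in the human rows of the human-mouse matrices of the 4 graft libraries.

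The organoids were derived from H9, a human embryonic stem cell line, which the labels call wild type (WT) and the study's methods give as a derivative with a channelrhodopsin and yellow fluorescent protein cassette (ChR2-EYFP) at the AAVS site. The D0 library held organoids on the day of transplantation, at culture day 42, without a host. The other 4 libraries held grafted brain organoids (GBOs) recovered from the hippocampus (HIP) or the prefrontal cortex (PFC) of young adult immunodeficient mice (named SCID or SCID-Beige) at 2 or 4 months post transplantation (MPT), and are called HIP_2MPT, PFC_2MPT, HIP_4MPT and PFC_4MPT. Each combination had 1 library made from pooled organoids or mice, so no group had a replicate. The methods give the derivative for the sequenced organoids as a whole, the labels do not name it, and its presence in D0 was not tested. D0 also differed from the grafts in the enzyme used for dissociation (TrypLE against Trypsin-EDTA), in the version of the counting software (3.1.0 against 5.0.0 in the file headers) and in the gene annotation (806 rows listed for D0 alone and 3869 for the grafts alone). The graft condition cannot be told apart from any of these in a comparison with D0.

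The kept human cells numbered 4885 in D0 and between 5952 and 8363 in the graft libraries. A unique molecular identifier (UMI) counts 1 captured RNA molecule, and the level of a gene is given as CPM, its UMIs scaled to a library total of 1000000 UMIs. D0 was the deepest library, with a median of 9847 UMIs per cell, against medians of 1253 to 2759 in the grafts. Between 6 and 20 cell barcodes were shared by any 2 libraries, at most 0.289% of the smaller one.

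Growth hormone is made by somatotroph cells of the anterior pituitary, where the transcription factor POU1F1 switches on GH1. GHRH from the hypothalamus drives its release and somatostatin (SST) restrains it. The hormone binds the receptor GHR, which signals through JAK2 and STAT5 to targets such as IGF1, while proteins of the SOCS family feed back on the receptor. The gene lies in a cluster with GH2, which is active in the placenta, and with the placental lactogen genes CSH1, CSH2 and CSHL1. Forebrain cells are not known as a main source of this hormone. The 3′ end of GH1, with its polyadenylation signal, is also in common use as the terminator of engineered expression cassettes. The sequence of the cassette in these cells was not among the sources used here, and 0 rows of either reference were named for a transgene, so whether the counted molecules came from the gene itself or from another sequence with the same 3′ end was not tested.

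The assay reads the 3′ ends of polyadenylated RNA, so the last exon decides which gene of the cluster a read is given to. GH1 lies on the minus strand of chromosome 17 at chr17:63917200-63918839 (GRCh38, GENCODE v44), with 5 exons, and its last exon spans 304 bases (chr17:63917203-63917506), of which 106 are 3′ untranslated region. The last exons of GH2, CSH1, CSH2 and CSHL1 were 96.7%, 95.1%, 93.5% and 93.1% identical to that of GH1. The 30 bases at the 3′ end, with the polyadenylation signal in capitals, are shown because they are the part of the cluster's transcripts nearest to the captured tail, each read 5′ to 3′ on the minus strand.
GH1, chr17:63917205-63917234: cagccttgtcctAATAAAattaagttgcat
GH2, chr17:63880217-63880246: cagccttgtcctAATAAAattaagttgcat
CSH1, chr17:63894920-63894949: cagccttgtcctAATAAAattaagttgtat
CSH2, chr17:63872019-63872048: cagccttgtcctAATAAAattaagttgtat
CSHL1, chr17:63909609-63909638: cagccttgtcttAATAAAattaagttgtat
With positions counted from 1 at the 5′ end of the GH1 site, GH2 had 0 differences, CSH1 and CSH2 each had C28T, and CSHL1 had C11T and C28T. Of the 155 windows of 150 bases over the whole last exon of GH1, this site included, 5 also occurred in GH2 and 0 in CSH1, CSH2 or CSHL1. The longest run of bases shared with GH1 was 154 in GH2, 68 in CSH1, 68 in CSH2 and 46 in CSHL1. The count of shared windows therefore depends on the window length.

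GH1 was abundant in every graft library and was not counted in D0. D0 held 0 GH1 UMIs among 55892222 UMIs, and the floor of 3 counts lay at 0.0537 CPM. The grafts held 16223 UMIs in HIP_2MPT, 15169 in HIP_4MPT, 12359 in PFC_2MPT and 16603 in PFC_4MPT. These correspond to 1449 CPM in HIP_2MPT (95% exact Poisson interval 1427 to 1472), 707 in HIP_4MPT (696 to 718), 816.5 in PFC_2MPT (802 to 831) and 984.5 in PFC_4MPT (969.6 to 999.6). All 4 graft values lay far above D0, and their intervals did not overlap one another. The intervals here cover counting error only. Against this floor, GH1 was 27005-fold higher in HIP_2MPT, 13169.6-fold in HIP_4MPT, 15212-fold in PFC_2MPT and 18342-fold in PFC_4MPT. The 95% exact Poisson interval of D0 reached 0.066 CPM, above the floor, so these folds are not lower limits at that level. Ranked by level among the detected genes of its library, GH1 was number 88 of 25505 in HIP_2MPT, 180 of 26470 in HIP_4MPT, 161 of 25027 in PFC_2MPT and 125 of 25690 in PFC_4MPT.

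The order of the graft libraries was HIP_2MPT, PFC_4MPT, PFC_2MPT and HIP_4MPT, so it followed neither the time after grafting nor the site. The 2 libraries at 2MPT averaged 1133 ± 448 CPM (SD, n = 2) and those at 4MPT 846 ± 196 CPM (n = 2). By site, HIP averaged 1078 ± 525 CPM (n = 2) and PFC 900.5 ± 119 CPM (n = 2). Each difference between stages or sites was smaller than the SD within at least 1 of the groups compared. Over the 4 grafts the level was 989 ± 327 CPM (SD, n = 4).

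**Figure D1:**
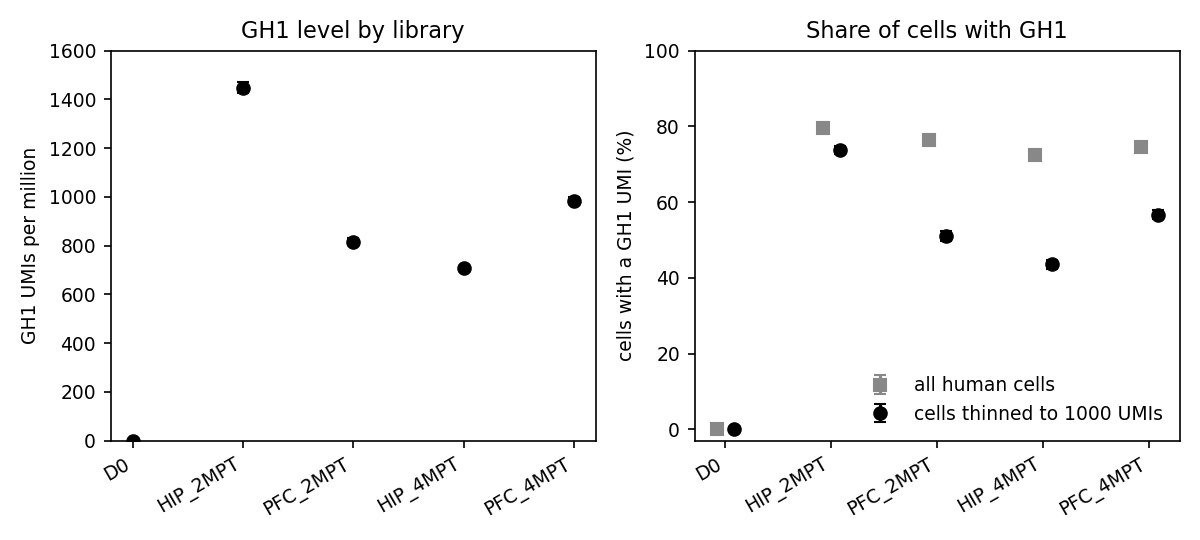
GH1 in the 5 libraries. The left panel plots the GH1 level in CPM, and the right panel the percent of human cells with a GH1 UMI, over all cells (squares) and after thinning each cell to 1000 UMIs (circles), with 95% exact intervals for counting error that are mostly narrower than the symbols. D0 is at 0 in both panels, while the 4 grafts lie between 707 and 1449 CPM.

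Most grafted cells carried at least 1 GH1 molecule. The share of human cells with a GH1 UMI was 79.7% in HIP_2MPT, 72.4% in HIP_4MPT, 76.4% in PFC_2MPT and 74.4% in PFC_4MPT. In D0 it was 0 of 4885 cells, where the same floor of 3 counts is a share of 0.0614% and the 95% exact binomial interval reached 0.0755%. With each cell thinned to 1000 UMIs, which removes the difference in depth, the shares were 73.7% (95% exact binomial interval 72.7 to 74.8) in HIP_2MPT, 43.6% (42.4 to 44.8) in HIP_4MPT, 51.0% (49.7 to 52.3) in PFC_2MPT and 56.7% (55.5 to 57.8) in PFC_4MPT. Thinning left out between 171 and 1635 cells per graft library and 282 in D0. The thinned shares kept the order of the levels, whereas the unthinned ones lay closer together, and the graft libraries with a lower GH1 level were the deeper ones.

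The molecules were spread thinly over many cells rather than held by a few. A cell carried 1.96 GH1 UMIs on average in HIP_2MPT, 2.19 in HIP_4MPT, 2.08 in PFC_2MPT and 1.99 in PFC_4MPT. Cells with exactly 1 GH1 UMI numbered 2275, 1774, 1491 and 2292 in the same order, and cells with more than 5 numbered 371, 638, 415 and 562. The highest count in a cell was 14 in HIP_2MPT, 50 in HIP_4MPT, 19 in PFC_2MPT and 39 in PFC_4MPT. If each cell had held GH1 in proportion to its UMIs, 83.2% of cells in HIP_2MPT, 84.1% in HIP_4MPT, 83.0% in PFC_2MPT and 81.2% in PFC_4MPT would be expected to have a GH1 UMI. The observed shares lay below these, by the least in HIP_2MPT and by the most in HIP_4MPT. At 1000 UMIs per cell, the variance of the GH1 count over its mean was 1.22 in HIP_2MPT, 1.34 in HIP_4MPT, 1.31 in PFC_2MPT and 1.35 in PFC_4MPT, where 1 is the value of pure counting.

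Whether a cell had a GH1 UMI went with its depth. Cells with a GH1 UMI had a median of 1284 UMIs in HIP_2MPT and those without 1122. The corresponding medians were 2989 and 2338 in HIP_4MPT, 2499 and 1909 in PFC_2MPT, and 1970 and 1511 in PFC_4MPT. In HIP_2MPT the share climbed from 64.8% among cells of 500 to 1000 UMIs to 96.2% among those of 2500 to 5000. Among cells of 5000 to 10000 UMIs it was 96.8% in HIP_4MPT, 95.7% in PFC_2MPT and 96.5% in PFC_4MPT. The level did not climb alike, and ranged over the depth bins from 1395 to 1471 CPM in HIP_2MPT, 532 to 881 CPM in HIP_4MPT, 672 to 846 CPM in PFC_2MPT and 865 to 1096 CPM in PFC_4MPT. D0 was at 0 in each of 6 depth bins, including 2404 cells with over 10000 UMIs. The 0 of D0 was thus measured at a greater depth per cell than the levels of the grafts.

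**Figure D2:**
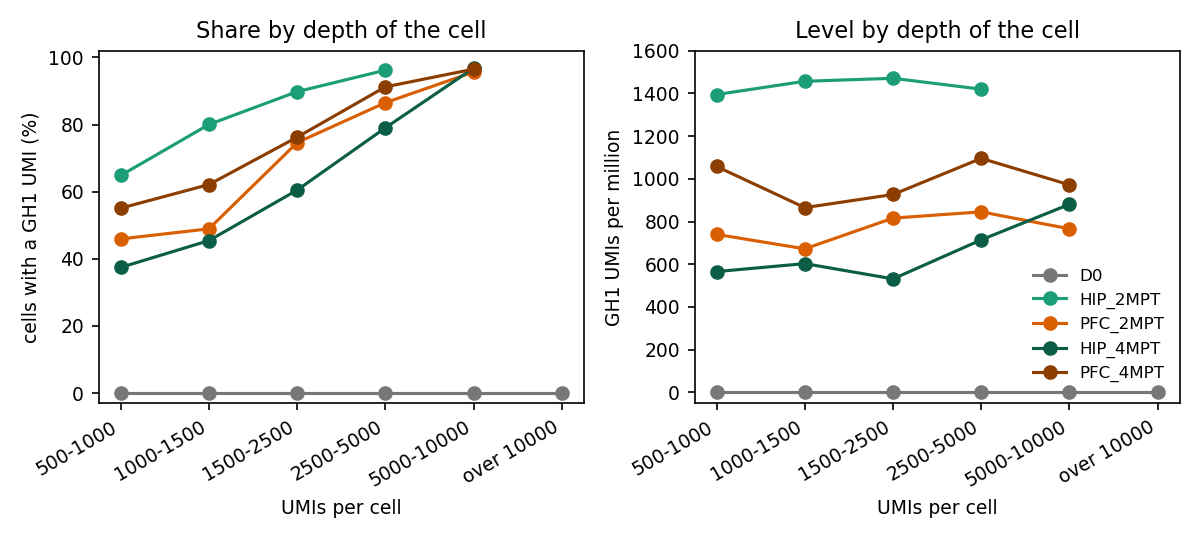
GH1 by the depth of the cell. The percent of cells with a GH1 UMI (left) and the GH1 level in CPM (right) are plotted against bins of UMIs per cell for each library. The share climbs to between 95.7% and 96.8% in the deepest bin shown of each graft library while the level runs from 1395 to 1471 CPM over the bins of HIP_2MPT and from 532 to 881 CPM over those of HIP_4MPT, and D0 stays at 0 in all 6 bins.

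The human-mouse matrices gave the same picture. In the same cells the human GH1 row held 16184 UMIs in HIP_2MPT, 15118 in HIP_4MPT, 12353 in PFC_2MPT and 16584 in PFC_4MPT. The count of GH1 was equal in both matrices in 8179 of 8277 cells of HIP_2MPT, 6789 of 6913 of HIP_4MPT, 5866 of 5952 of PFC_2MPT and 8274 of 8363 of PFC_4MPT. The mouse growth hormone gene Gh was at 0 UMIs in all 4 graft libraries.

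GH1 was counted in each cell class of the grafts. Clusters were rebuilt from the counts with GH1 kept out of the variable genes, and named from marker genes, so the classes are "like" a type rather than the type itself. Over the 20 clusters with at least 50 grafted cells, the share of grafted cells with a GH1 UMI ranged from 61.4% to 94.2% and the level from 692 to 1543 CPM. D0 was at 0 in its 8 named classes and in its unnamed cells. The signal was therefore not particular to 1 class, and its level varied among clusters.

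The astrocyte-like class carried the highest level in 3 of 4 libraries. It held GFAP, AQP4, S100B, AGT and other astrocyte markers in 2 clusters, the larger of which was led by TNC and metallothionein genes and also raised radial glia markers. GH1 was at 1769 CPM (95% interval 1653 to 1891) in the astrocyte-like cells of HIP_2MPT, 1413 (1370 to 1456) in HIP_4MPT, 1175 (1113 to 1240) in PFC_2MPT and 1756 (1691 to 1822) in PFC_4MPT. In the glutamatergic neuron-like cells it was at 1361 CPM (1333 to 1390), 476 (460 to 493), 735 (715 to 755) and 909 (881 to 937). The ratio of the former to the latter class was 1.30 (1.21 to 1.39) in HIP_2MPT, 2.97 (2.83 to 3.11) in HIP_4MPT, 1.599 (1.505 to 1.699) in PFC_2MPT and 1.93 (1.84 to 2.03) in PFC_4MPT. Astrocyte-like cells were higher in 4 of 4 libraries, by a factor that differed between them. With cells thinned to 1000 UMIs the share with a GH1 UMI was 77.9% in the astrocyte-like and 72.3% in the glutamatergic neuron-like cells of HIP_2MPT, 66.8% and 36.1% in HIP_4MPT, 62.3% and 49.3% in PFC_2MPT, and 78.1% and 57.6% in PFC_4MPT.

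Most other glial and progenitor values lay between these, with exceptions in HIP_2MPT and PFC_4MPT. Radial glia-like cells, marked by SOX2, VIM and HES1, were at 1792 CPM (1636 to 1959) in HIP_2MPT, 731 (682 to 782) in HIP_4MPT, 924 (865 to 986) in PFC_2MPT and 1155 (1078 to 1236) in PFC_4MPT. In HIP_2MPT this interval overlapped those of the astrocyte-like cells and of the intermediate progenitor or newborn neuron-like cells, so the first 3 places of that library were not separated by counting error. Oligodendrocyte lineage-like cells, led by OLIG1, OLIG2 and EGFR, numbered at least 50 only at 4MPT, with 826 CPM (794 to 859) in HIP_4MPT and 1147 (1098 to 1197) in PFC_4MPT. Cells resembling intermediate progenitors or newborn neurons, with EOMES and PPP1R17, were at 1676 CPM in HIP_2MPT, 633 in HIP_4MPT, 915 in PFC_2MPT and 819 in PFC_4MPT.

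The lowest places were held by dividing cells and neurons. Cycling progenitor-like cells, with MKI67 and TOP2A, were at 1324 CPM (1232 to 1422) in HIP_2MPT, 599 (559 to 640) in HIP_4MPT, 643 (602 to 685) in PFC_2MPT and 780.4 (723 to 841) in PFC_4MPT. Inhibitory neuron-like cells, with GAD1, GAD2 and DLX genes, were at 581 CPM (533 to 631) in HIP_4MPT and 756 (722 to 791) in PFC_4MPT. The class with the lowest level was the cycling progenitor-like one at 2MPT in both sites, the glutamatergic neuron-like one in HIP_4MPT and the inhibitory neuron-like one in PFC_4MPT. The lowest interval overlapped that of the glutamatergic neuron-like class in HIP_2MPT. In PFC_4MPT it overlapped those of the cycling and intermediate classes. The lowest places of these libraries were thus not separated by counting error. The highest class exceeded the lowest by 1.35 times in HIP_2MPT, 2.97 in HIP_4MPT, 1.83 in PFC_2MPT and 2.32 in PFC_4MPT. In PFC_4MPT the glutamatergic neuron-like, intermediate and cycling classes were neighbours in the order, and the intervals of the latter 2 overlapped.

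**Figure D3:**
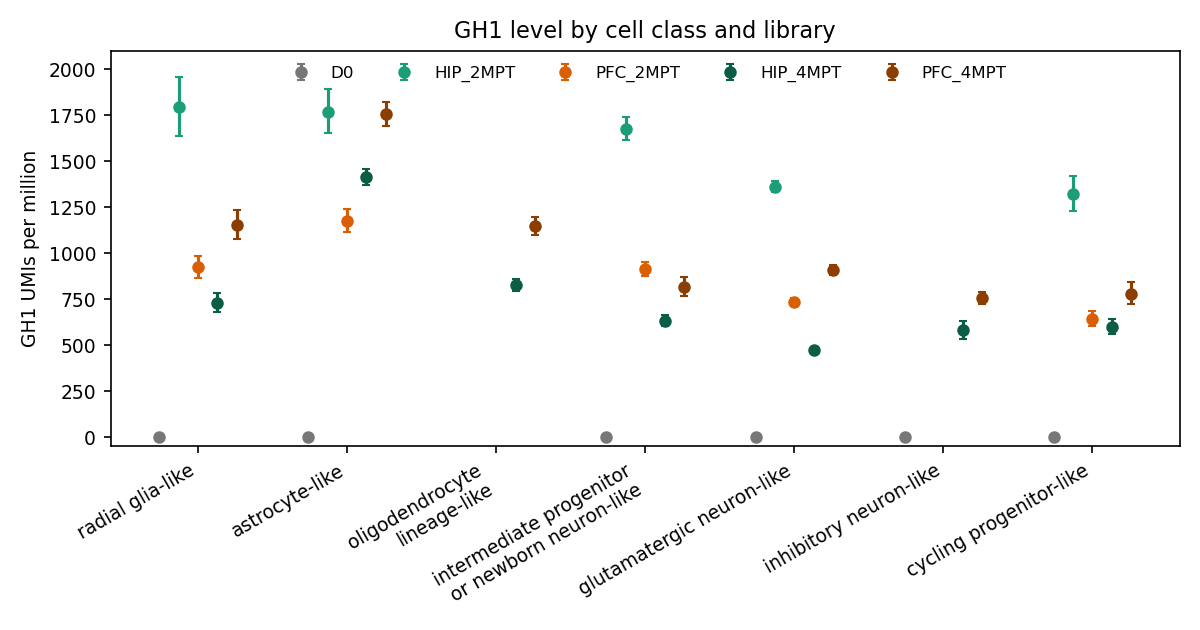
GH1 level by cell class and library. Points are the GH1 level in CPM of each class with at least 50 cells in a library, with 95% exact Poisson intervals. D0 is at 0 in each class shown, and the astrocyte-like class lies above the glutamatergic neuron-like class in all 4 graft libraries, by 1.30 to 2.97 times.

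Mouse host cells served as the background, because they should not make a human transcript. Barcodes with a human share of UMIs under 0.2 were taken as host, those over 0.8 as human and the rest as mixed. A GH1 UMI was found in 17.9% of 916 host barcodes of HIP_2MPT, 8.93% of 2071 of HIP_4MPT, 5.05% of 772 of PFC_2MPT and 12.5% of 1202 of PFC_4MPT. The human barcodes of the same matrices had shares of 75.9%, 71.3%, 75.0% and 70.4%. The host shares were well below the human ones, but host barcodes also held few human UMIs of any kind, with medians of 155 in HIP_2MPT, 112 in HIP_4MPT, 54 in PFC_2MPT and 241 in PFC_4MPT, against 1207, 2717, 2328 and 1660 in the human barcodes.

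Relative to the human UMIs in the barcode, GH1 in host barcodes was close to its level in human cells in 3 of 4 libraries. Taken as CPM of the human UMIs alone, GH1 in host barcodes was at 1253 (1080 to 1446) in HIP_2MPT, 721 (628 to 825) in HIP_4MPT, 815 (583 to 1110) in PFC_2MPT and 517 (441.5 to 601) in PFC_4MPT. In the human barcodes it was at 1441 (1419 to 1463), 708 (696 to 719), 816 (801.5 to 830.2) and 995 (981 to 1010). The intervals of host and human barcodes overlapped in HIP_2MPT, PFC_2MPT and HIP_4MPT, and in PFC_4MPT the host value was the lower one. Mixed barcodes, which hold UMIs of both species, were at 1352, 703, 676 and 873 on the same scale. GH1 thus appeared in host barcodes in about the same ratio to other human transcripts as in the grafted cells, other than in PFC_4MPT. This human background bears on every share of cells with a GH1 UMI given above, and its part in them was not tested.

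**Figure D4:**
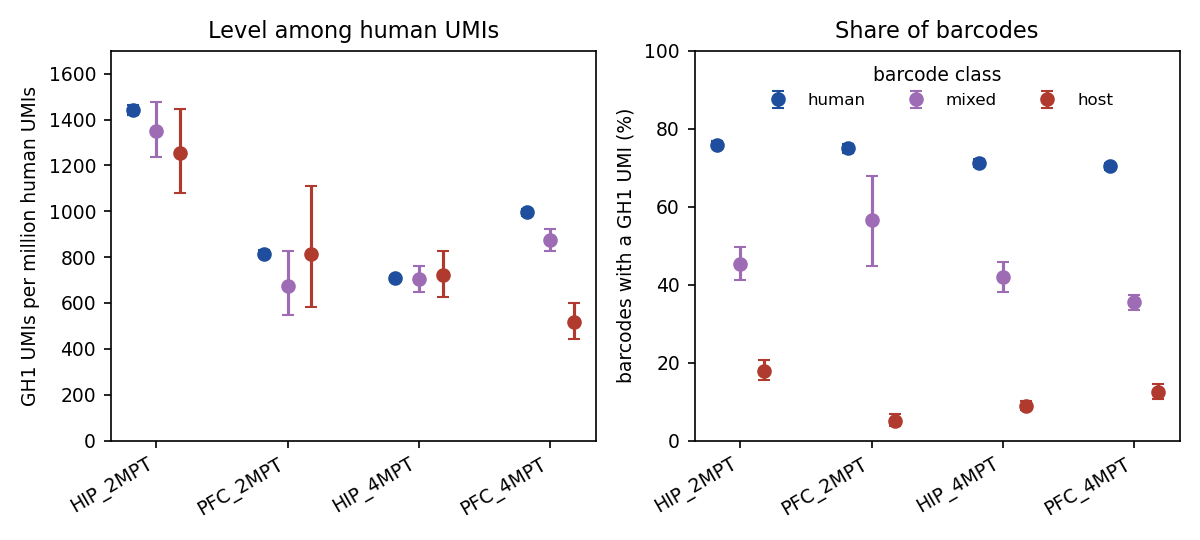
GH1 in human, mixed and host barcodes of the human-mouse matrices. The left panel gives GH1 as CPM of the human UMIs alone and the right panel the percent of barcodes with a GH1 UMI, with 95% exact intervals. Host barcodes have the lowest shares, from 5.05% to 17.9%, while their level among human UMIs is within the interval of the human barcodes or near it except in PFC_4MPT.

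Of the paralogs, CSHL1 was counted in the libraries that held GH1 and the others hardly at all. CSHL1 held 0 UMIs in D0, 338 in HIP_2MPT, 584 in HIP_4MPT, 571 in PFC_2MPT and 712 in PFC_4MPT, or 30.2, 27.2, 37.7 and 42.2 CPM in the grafts. This was 2.08 CSHL1 UMIs per 100 GH1 UMIs in HIP_2MPT, 3.85 in HIP_4MPT, 4.62 in PFC_2MPT and 4.29 in PFC_4MPT. GH2, CSH1 and CSH2 each had 0 or 1 UMI in every library. A GH1 UMI was found in 86.1% of the cells with CSHL1 in HIP_2MPT, 89.5% in HIP_4MPT, 88.0% in PFC_2MPT and 83.9% in PFC_4MPT. Over all human cells the shares were 79.7%, 72.43%, 76.43% and 74.45% in the same order. Cells with CSHL1 were deeper than the rest, with medians from 1337 to 3683 UMIs. The longest run of bases shared by the last exons of GH1 and CSHL1 was 46, and GH2, whose last exon is the most similar to that of GH1, was at or near 0. How the counting divided molecules between these similar genes was not tested, so the CSHL1 level is uncertain.

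The other genes beside GH1 did not go from 0 in D0 to abundance in the grafts. CD79B had 0 to 3 UMIs in each library, the muscle sodium channel gene SCN4A had 10 in D0 and 0 or 1 in the grafts, and ICAM2 had 0 or 1. PSMC5, a proteasome subunit gene within 100 kb, was at 98.2 CPM in D0, 105 in HIP_2MPT, 78.8 in HIP_4MPT, 97.3 in PFC_2MPT and 89.5 in PFC_4MPT. Some neighbours fell against D0 in the edgeR quasi-likelihood fit of the 5 library sums, a test in which D0 is a single library. The RNA helicase gene DDX42 was at 59.6 CPM in D0, 30.9 in HIP_2MPT, 23.6 in HIP_4MPT, 28.6 in PFC_2MPT and 25.9 in PFC_4MPT (log2 fold change -1.36, SE 0.26, adjusted p = 0.00183 by edgeR at 2MPT, and -1.56, SE 0.26, adjusted p = 0.000737 at 4MPT). SMARCD2, a chromatin remodelling subunit gene, went from 10.9 CPM to between 4.45 and 7.60 CPM, and PRR29 from 48 UMIs to between 0 and 2. In all, 3 of the 6 neighbours tested were lower at each stage and 1, CSHL1, was higher, beside a background over all genes of 27.2% called higher and 21.1% lower at 2MPT and 28.7% and 21.4% at 4MPT. Without PFC_4MPT 1 was lower at each stage, and DESeq2 called 1 of 13 lower at 2MPT and 2 of 13 at 4MPT. In GENCODE v44 a second protein-coding model (chr17:63917203-63931385, minus strand) overlaps GH1, and it is listed in neither reference's rows. The GENCODE v44 genes within 100 kb of GH1 were listed alike in both references, and rows absent from GENCODE v44 were not placed. Whether the exons of GH1 overlapped another model in the reference used for D0 was not tested, because its gene models were not used here.

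GH1 was 1 of few genes that were at 0 in D0 and abundant in all grafts. Among 32636 rows compared, 5 had 0 UMIs in D0 and at least 50 CPM in each graft library. GH1 was the highest of them, followed by TOMM6, a subunit of the mitochondrial import channel, at 123 to 147 CPM, XACT, a noncoding RNA of pluripotent cells, at 69.4 to 143 CPM, MTRNR2L6 at 66.1 to 381 CPM and AC119868.2 at 50.05 to 97.8 CPM. In the converse direction only TCEAL2 qualified, at 78.5 CPM in D0 and 0 in the grafts. With a looser criterion of at least 50 CPM in each graft and at least 20-fold over D0 or its floor, 78 genes qualified. Of the 77 placed on the genome, 10 (12.99%) overlapped on the same strand a gene row listed for D0 alone, against 140 of 2584 other genes (5.42%). Only 562 of the 806 rows listed for D0 alone had a position in GENCODE v44, and overlap with the others could not be seen. GH1 overlapped none of these 562.

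The genes whose levels were most like GH1 over the 37 sums of a library and a class, by Pearson's r of log2(CPM + 1) among 14378 genes, were TOMM6 (r = 0.996), TRAPPC5 (0.994), ATP6V0C (0.992), MRPL38 (0.992) and RNASEK (0.990). The sums share libraries and depth, and the likeness was mainly the contrast between D0 and the grafts. ATP6V0C, a proton pump subunit, was at 0.465 CPM in D0 and 290.1 to 370.1 CPM in the grafts, and RNASEK at 8.41 and 439 to 532 CPM. Each of these 5 genes overlapped 1 or 2 rows listed for D0 alone. Over the 28 sums of the grafts their r fell to 0.57 for TOMM6, 0.73 for TRAPPC5, 0.30 for ATP6V0C, 0.77 for MRPL38 and 0.30 for RNASEK. Among 13153 genes in the grafts the genes most like GH1 were SNHG9 (r = 0.931), DDIT3 (0.865), ADGRG1 (0.864), MVD (0.863) and PIGS (0.862).

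The AAVS site lies in PPP1R12C, a myosin phosphatase subunit gene at chr19:55090914-55117637 (GRCh38, minus strand), which was higher in D0 than in the grafts. It held 658 UMIs in D0, 11 in HIP_2MPT, 20 in HIP_4MPT, 19 in PFC_2MPT and 9 in PFC_4MPT. These are 11.8 CPM in D0, 0.983 in HIP_2MPT, 0.932 in HIP_4MPT, 1.26 in PFC_2MPT and 0.534 in PFC_4MPT. D0 was thus the highest library and the 4 grafts lay close together, in an order that was neither that of their GH1 levels nor its reverse. PPP1R12C fell in the edgeR quasi-likelihood fit of the 5 library sums, with a log2 fold change of -3.73 (SE 0.47, adjusted p = 0.000139) at 2MPT against D0 and -4.28 (SE 0.48, adjusted p = 6.16e-05) at 4MPT against D0. Between 4MPT and 2MPT it did not pass the test (log2 fold change -0.55, SE 0.48, adjusted p = 0.692). Over all genes, 21.1% were called lower at 2MPT against D0 and 21.4% at 4MPT against D0. D0 is a single library in both comparisons, is assumed to vary like the others, and differs in the ways given above, and whether it carried the cassette was not tested.

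Other genes within 100 kb of PPP1R12C also differed from D0. In the same edgeR fit, 1 of the 10 tested passed as higher and 4 as lower at 2MPT, and 2 as higher and 6 as lower at 4MPT. TNNI3, a troponin gene, was at 37.7 CPM in D0 and 2.61 to 5.90 CPM in the grafts (log2 fold change -3.41 at 2MPT and -3.78 at 4MPT). These counts stand beside the background given for the neighbours of GH1, over 19074 genes, and no test compared them with other genes. At 4MPT the 6 called lower became 2 without HIP_4MPT and 4 without PFC_4MPT. DESeq2 called 2 of 12 lower at 2MPT and 4 of 12 at 4MPT. A noncoding gene on the other strand that overlaps PPP1R12C, AC010327.8, is listed for the grafts alone and held 3 to 12 UMIs in each.

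Genes of the growth hormone axis showed no common direction. Of the 29 genes listed, 23 passed the filter on low counts for the comparisons of stages. Between 4MPT and 2MPT, 0 of 23 passed the edgeR test in either direction, beside a background of 1.85% of all genes higher and 0.55% lower. At an unadjusted p under 0.05 by edgeR there were 6, beside 2614 of 19074 over all genes. DESeq2 called 1 of 27 lower and 0 higher, beside 195 lower and 465 higher of 27512 genes. Against D0, 4 rose and 7 fell at 2MPT, and 5 rose and 8 fell at 4MPT, beside the background shares given above, and no test compared the list with other genes. The median log2 fold change of the list was -0.06 at 2MPT and -0.20 at 4MPT, against 0.07 and 0.08 over all genes. Both comparisons share the D0 library.

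Among the genes that control release, SST was at 50.2 CPM in D0, 0.447 in HIP_2MPT, 0.0932 in HIP_4MPT, 0 in PFC_2MPT and 2.79 in PFC_4MPT. It fell against D0 at 2MPT (log2 fold change -8.33, SE 1.20, adjusted p = 0.000307 by edgeR) and at 4MPT (-5.46, SE 0.94, adjusted p = 0.000903). At 4MPT DESeq2 did not call it (adjusted p = 0.159), and without PFC_4MPT the log2 fold change was -9.27. At 2MPT it was -13.58 without HIP_2MPT. The cluster in which SST was among the leading genes held 1078 of its 1083 cells in D0. GHRH was at 0.59 CPM in D0 and 0.536 to 2.89 CPM in the grafts and passed the test at 4MPT against D0 (log2 fold change 1.78, adjusted p = 0.0404 by edgeR), a call that was lost without HIP_4MPT (adjusted p = 0.157), without PFC_4MPT (adjusted p = 0.0865) and with DESeq2 (adjusted p = 0.115). SSTR2, a somatostatin receptor gene, was at 103 CPM in D0, 195 in HIP_2MPT, 108 in HIP_4MPT, 223 in PFC_2MPT and 99.8 in PFC_4MPT, and did not pass between the stages (adjusted p = 0.0557 by edgeR). The receptor genes GHSR and SSTR4 were at 0 UMIs in all 5 libraries.

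The receptor of growth hormone itself was scarce. GHR was at 1.22 CPM in D0, 1.251 in HIP_2MPT, 1.96 in HIP_4MPT, 0.595 in PFC_2MPT and 2.67 in PFC_4MPT. Both 4MPT libraries thus lay above both 2MPT libraries and D0. The difference between 4MPT and 2MPT did not pass the test (log2 fold change 1.42, SE 0.54, adjusted p = 0.262 by edgeR). STAT5B, which carries the signal of the receptor, was at 19.6 CPM in D0 and 48.7 to 76.7 CPM in the grafts, and rose at 2MPT (log2 fold change 1.30, SE 0.32, adjusted p = 0.0069 by edgeR) and at 4MPT (1.37, SE 0.32, adjusted p = 0.00515). JAK2 was at 4.83 CPM in D0 and 10.8 to 21.1 CPM in the grafts and passed at 4MPT (log2 fold change 1.41, adjusted p = 0.0172 by edgeR), a call lost without HIP_4MPT (adjusted p = 0.116).

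The feedback inhibitors and targets did not share a direction. SOCS3 was at 22.9 CPM in D0 and 1.26 to 2.58 CPM in the grafts and fell at both stages (log2 fold change -3.87, SE 0.43, at 2MPT and -4.42, SE 0.44, at 4MPT). SOCS2 was at 12.9 CPM in D0 and 10.7 to 16.3 CPM in the grafts, and CISH at 2.29 and 2.00 to 8.40 CPM, and neither passed against D0. PTPN6 rose from 0.143 CPM in D0 to between 2.85 and 8.22 CPM (log2 fold change 5.04 at 2MPT and 4.02 at 4MPT). IGF1, the best known target, was at 6.08 CPM in D0 and 0.179 to 0.356 CPM in the grafts, and it fell at 2MPT (log2 fold change -4.86, SE 0.63, adjusted p = 0.00017 by edgeR) and at 4MPT (-4.79, SE 0.61, adjusted p = 0.000133). Its receptor gene IGF1R was at 41.8 CPM in D0 and 113 to 134.5 CPM in the grafts and rose at both stages (log2 fold change 1.08 and 1.32). The abundance of GH1 in the grafts thus stood beside less IGF1 than in D0. Between the sites, 0 of 18 axis genes tested passed, also at an unadjusted p under 0.05 and with DESeq2, beside a background of 0.0662% of genes higher and 0.0165% lower in PFC against HIP in the edgeR fit with stage as a covariate.

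Markers of pituitary cells were at or near 0. The 15 listed markers summed to 7.28 CPM in D0, 5.27 in HIP_2MPT, 5.08 in HIP_4MPT, 4.96 in PFC_2MPT and 3.62 in PFC_4MPT, and between 5 and 11 of them were detected in a library. POU1F1, which switches on GH1 in the pituitary, had 0 UMIs in 4 libraries and 1 in PFC_2MPT. PRL, the gene of prolactin, had 3 to 6 UMIs in every library, D0 included, and TSHB and FSHB had 0 in all 5. Of 5 markers tested POMC alone was called, and it was lower in the grafts (log2 fold change -3.95 at 2MPT, adjusted p = 0.00444 by edgeR, and -9.34 without PFC_2MPT). Its call at 4MPT was lost without PFC_4MPT (adjusted p = 0.0589). The transcripts that define pituitary cells were therefore at or near 0 in the libraries where GH1 was abundant. Markers of other cells that a dissection could hold were also low, at sums of 5.13 to 17.7 CPM for 4 endothelial, 2.05 to 15.03 CPM for 4 microglial and 4.11 to 18.6 CPM for 3 pericyte genes over the 5 libraries, each highest in D0.

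Cells with a GH1 UMI were then compared with cells without one, to see what else differed between them. Where a partner was found, a cell without GH1 was paired with a cell with it. Partners came from the same library and cluster and had a near-equal UMI total. This gave 1650 pairs from 1680 cells without GH1 in HIP_2MPT and 1752 from 1906 in HIP_4MPT. It gave 1282 from 1403 in PFC_2MPT and 2071 from 2137 in PFC_4MPT. Cells without a partner were left out. The median UMIs of paired cells with and without GH1 were both 1126 in HIP_2MPT, 2403 and 2398 in HIP_4MPT, 1984 and 1980 in PFC_2MPT, and 1531 and 1529 in PFC_4MPT. The sums of the paired cells were tested with the library as a block in edgeR, leaving GH1 itself out. The error estimate is shared across genes, so these p-values do not measure the spread between libraries alone. Of 13664 genes, 35 were higher in cells with GH1 (0.256%) and 7 were lower (0.0512%). All 42 differed in the direction of the call in at least 3 of 4 libraries, and 36 in 4 of 4. The same 4 libraries gave the calls, so this agreement follows in part from the selection.

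By the rule for named genes, the largest differences among genes of at least 10 CPM were for MT1E, EGR4, CSHL1, MT2A and HES5. HES5, a Notch target of neural progenitors, was at 33.8 CPM in cells with and 23.8 in cells without GH1 in HIP_2MPT, 525 and 378 in HIP_4MPT, 791 and 595 in PFC_2MPT, and 956 and 696 in PFC_4MPT. It was higher with GH1 in every library (log2 difference 0.45, SE 0.04, adjusted p = 2.89e-31 by edgeR). The metallothionein genes MT1E (0.79, SE 0.13) and MT2A (0.49, SE 0.06) were also higher, and in neuron-like cells alone neither passed (MT2A 0.03, adjusted p = 0.988, and MT1E 0.84, adjusted p = 0.359). The call of MT1E was also lost without PFC_4MPT (adjusted p = 0.375) and that of EGR4 (0.67, SE 0.15) without PFC_2MPT (adjusted p = 0.777). CSHL1 was at 39.1 and 24.3 CPM in HIP_2MPT, 21.6 and 12.8 in HIP_4MPT, 34.3 and 25.2 in PFC_2MPT, and 43.4 and 32.2 in PFC_4MPT (log2 difference 0.55, SE 0.12, adjusted p = 0.00214 by edgeR). This was lost without HIP_4MPT (adjusted p = 0.11), and DESeq2 gave CSHL1 no adjusted p. The CSHL1 level was thus higher in cells with a GH1 UMI than in matched cells without one in all 4 libraries, with a call that depended on HIP_4MPT.

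The 5 named genes that were lower with GH1 were IL1RAPL2 (log2 difference -0.51, SE 0.13), LDLRAD3 (-0.49, SE 0.13), KIRREL3 (-0.45, SE 0.11), LINC01456 (-0.29, SE 0.08) and GRIP1 (-0.26, SE 0.07). KIRREL3 and IL1RAPL2 encode adhesion proteins of synapses, and GRIP1 a scaffold of glutamate receptors. All 5 calls were lost without HIP_4MPT, where the adjusted p lay between 0.511 and 0.933. IL1RAPL2 was at 8.14 CPM with and 25.2 without GH1 in HIP_4MPT, and 66.3 and 74.3 in PFC_4MPT. These differences were the less stable side of the comparison.

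The choice of the next genes, all called higher, was made with their values in view, and no list of such genes was fixed or tested. FOS, an immediate early gene whose transcription follows stimulation or stress of a cell, was at 1692 CPM in cells with and 1416 in cells without GH1 in HIP_2MPT, 1445 and 966 in HIP_4MPT, 2423 and 1903 in PFC_2MPT, and 2597 and 2094 in PFC_4MPT. It was higher with GH1 in 4 of 4 libraries (log2 difference 0.38, SE 0.03, adjusted p = 2.6e-43 by edgeR). JUNB, which encodes a partner of FOS, was higher by 0.37 (SE 0.04) in 4 of 4, and both passed under each alternative run. EGR1 was higher by 0.34 (SE 0.03) in 4 of 4, and DESeq2 did not call it (adjusted p = 0.0569). NPAS4 was higher by 0.42 (SE 0.09), a call lost without PFC_4MPT (adjusted p = 0.236) and in neuron-like cells alone (adjusted p = 0.103). ARC was higher by 0.30 (SE 0.05) in 3 of 4 libraries, a call lost without PFC_2MPT (adjusted p = 0.0717) and with DESeq2 (adjusted p = 0.998).

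Of the cell type markers tested between the paired cells, HES1, APOE and DLX1 were called, all higher with GH1. As a share of the markers tested this lay above the background of 0.256% of all genes called higher. The background called lower was 0.0512%. At an unadjusted p under 0.05 by edgeR there were 972 of 13664 genes. Among the markers these were 5 of 8 for radial glia, 3 of 6 for cycling progenitors and 0 of 9 for glutamatergic neurons. They were 2 of 7 for inhibitory neurons, 1 of 7 for astrocytes and 2 of 6 for the oligodendrocyte lineage. All 6 cycling progenitor markers were lower with GH1. For intermediate progenitors or newborn neurons 3 of 6 lay under 0.05, and all 6 were higher. No list was tested as a whole. The 8 radial glia markers tested went in both directions, with log2 differences from -0.16 to 0.38. Of these HES1 alone was called, and was higher with GH1 by 0.38 (SE 0.06). Without HIP_4MPT its adjusted p was 0.0599, and in neuron-like cells alone it differed by -0.12 (adjusted p = 0.954). The 7 astrocyte markers tested ran from -0.05 to 0.69, and APOE alone was called (0.43, SE 0.09). This edgeR call was lost without PFC_4MPT (adjusted p = 0.39) and in neuron-like cells alone (adjusted p = 0.776). The 7 inhibitory neuron markers ran from -0.15 to 0.55, and DLX1 alone was called (0.42, SE 0.10). This edgeR call was lost without HIP_4MPT (adjusted p = 0.0723) and without PFC_4MPT (adjusted p = 0.66). Among the 28 tested markers of the other classes edgeR called 0, with 8 at an unadjusted p under 0.05, and DESeq2 called 0 of 39.

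Of 16 growth hormone axis genes tested in these pairs, STAT3 alone was called, beside 0.256% of all genes higher and 0.0512% lower. Its log2 difference was 0.33 (SE 0.08, adjusted p = 0.0165 by edgeR). STAT3 was higher with GH1 in 4 of 4 libraries, and the call was lost without HIP_2MPT (adjusted p = 0.108), PFC_2MPT (0.297) or HIP_4MPT (0.148). STAT5B differed by 0.01 (SE 0.08) and IGF1R by -0.06 (SE 0.05), and neither passed. The median over the axis genes was 0.04, against 0.00 over all genes.

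**Figure D5:**
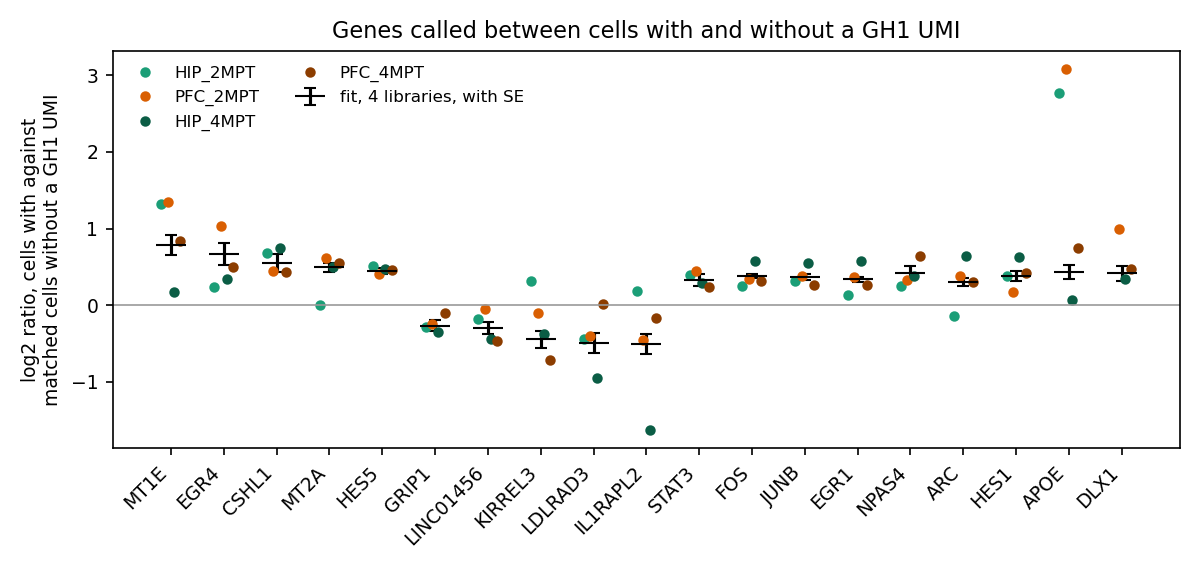
Genes called between cells with a GH1 UMI and matched cells without one. The 10 genes named by the rule come first, then STAT3 and the genes chosen after their values were seen. Points are log2 ratios of CPM in each graft library, and black bars the edgeR estimate over the 4 libraries with its SE. FOS, JUNB, EGR1 and HES5 lie above 0 in all 4 libraries, GRIP1 and LINC01456 below 0, and APOE is widely spread between libraries.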

How the data were processed

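The authors made 10x Genomics 3′ libraries (kit version 3) and deposited raw UMI counts per gene and barcode, made with Cell Ranger (version 3.1 in the submitters' processing notes, 3.1.0 for D0 and 5.0.0 for the grafts per the file headers) against GRCh38 and, for the grafts, a human-mouse reference. Cells over 500 UMIs and 500 genes, with log10 genes over log10 UMIs above 0.8, a mitochondrial share under 0.15 and, in the grafts, a human share over 0.8 were kept; no doublet caller was run. Total counts per library were 11192237 to 55892222 UMIs. Levels have exact Poisson and shares exact Clopper-Pearson intervals at level 0.95.

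Clusters came from Seurat 5.3.0 (SCTransform, reciprocal principal component integration, 2500 variable genes, 40 components, resolution 0.8) and were named from fixed markers raised 1.25-fold in at least 0.05 of cells, with at least 3 raised. Library sums were tested with edgeR 4.0.16 (quasi-likelihood, TMM, filterByExpr, Benjamini-Hochberg adjustment at 0.05), and DESeq2 1.42.0 was an alternative, in R 4.3.3. Stages were fitted with D0, 2MPT and 4MPT as groups, taking both sites as the replicates of a stage, and sites with stage as a covariate. With 1 library per condition and pooled mice, p-values of the stage and site fits measure the spread between these libraries only. The fit of cells with against without GH1 takes both sums from the same library. Its error estimate is shared across genes, so its p-values do not measure the spread of a gene's difference between libraries alone. In the comparison of cells with and without GH1, cells were paired within library and cluster at a UMI difference under 0.05 of the total. The fits were tested on simulated data with 100 2-fold and 100 4-fold changes. Between 4MPT and 2MPT 17 and 96 of these were found over 18097 genes. At 2MPT against D0 the counts were 6 and 86 over 18055, and at 4MPT against D0 they were 14 and 84 over 18183. Between sites they were 7 and 85 over 17769, and between cells with and without GH1 93 and 100 over 13343 genes. Changes were simulated only in genes with a mean over 5 CPM, with 1 dispersion for all genes. These rates therefore do not apply to scarcer genes such as GHR, GHRH and PPP1R12C. Named genes were GH1, its paralogs, genes within 100 kb of GH1 and PPP1R12C, pituitary markers, 29 growth hormone axis genes, the 5 genes most like GH1 and, per direction, the 5 largest calls of at least 10 CPM between cells with and without GH1. GH1 and these lists were chosen with earlier results of these data known. Gene positions and sequences came from the GRCh38 genome with GENCODE v44.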

Additional observations from a re-analysis of the deposited data

How the results depend on the processing

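D0 held 0 GH1 UMIs over all of its 5675 barcodes, so no setting could move it from 0 and the settings do not test that value. With mitochondrial UMIs left out of the total, GH1 was at 1508 CPM in HIP_2MPT, 729 in HIP_4MPT, 836.9 in PFC_2MPT and 1061 in PFC_4MPT. The shares with a GH1 UMI followed the depth used: in the order HIP_2MPT, HIP_4MPT, PFC_2MPT and PFC_4MPT they were 49.4%, 26.2%, 31.8% and 36.3% at 500 UMIs per cell, 91.3%, 65.6%, 74.8% and 80.1% at 2000, 79.7%, 72.4%, 76.4% and 74.4% without thinning, and 79.7%, 72.3%, 76.4% and 74.4% in the human-mouse matrices without thinning. Without integration the ratio of astrocyte-like to glutamatergic neuron-like GH1 was 1.44 in PFC_2MPT and 1.84 in PFC_4MPT. With host barcodes taken at a human share under 0.1, their GH1 in HIP_2MPT was 1565 CPM of the human UMIs alone. Over the grafts alone the likeness to GH1 fell to r = 0.574 for TOMM6, 0.726 for TRAPPC5, 0.296 for ATP6V0C, 0.771 for MRPL38 and 0.301 for RNASEK.

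Growth hormone axis genes called between 4MPT and 2MPT numbered 2 without a filter on low counts, 1 with DESeq2 and 0 to 2 with a library left out (2 without HIP_2MPT, 1 without PFC_2MPT and 1 without HIP_4MPT). With the graft site as a replicate block 0 were called. The sites share only a name between stages, and the block moved the calls over all genes from 352 higher and 105 lower to 558 and 176. At 4MPT against D0 there were 8 with DESeq2 and 8 to 13 with a library left out, 8 being without HIP_4MPT. Genes called between cells with and without GH1 numbered 14 with DESeq2, 104 when cells were not matched by UMI total, 27 in neuron-like cells alone and 24 to 42 with a library left out, 24 being without HIP_4MPT. Between sites over all genes, 12 higher and 3 lower became 0 and 0 without stage in the fit, without HIP_2MPT or without PFC_4MPT, 2 and 0 without PFC_2MPT, and 6 and 7 without HIP_4MPT. Between 4MPT and 2MPT over all genes, calls were 32 higher and 0 lower without PFC_4MPT, 181 and 26 without HIP_4MPT, and 965 and 543 without PFC_2MPT. Of 435 values of single named genes under these settings, 339 kept their direction and side of the threshold, 95 kept the direction but no longer passed, and 1 reversed (HES1 in neuron-like cells alone, -0.1213). A further 11 values without an adjusted p were left out of these counts. The causes were not tested. With 1 library per condition, and grafts shallower than D0, GH1 comparisons rest on 5 libraries.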

Other observations

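Near the threshold of the human share, mixed barcodes of PFC_4MPT were the most numerous, at 2278 against 76 to 628 in the other grafts, and 35.4% of them had a GH1 UMI. The unnamed cells of the grafts, in clusters led by TMEM158 and TUBB3, by SOX11, or by CCBE1 and mitochondrial genes, carried GH1 at 1466 CPM in HIP_2MPT, 522 in HIP_4MPT, 833 in PFC_2MPT and 884 in PFC_4MPT.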
